A study of Mus musculus with 8 samples.

Results

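The transcripts described here are those of 10 mouse genes of the NF-kB system, among 23597 genes in the deposited table. They were chosen by symbol, with earlier results of these libraries known, and all 10 were found. They are the subunit genes Rela, Nfkb1, Relb and Nfkb2, the IkB genes Nfkbia, Nfkbib and Nfkbiz, and Tnfaip3, Tnip1 and Birc3, which act on ubiquitin chains in the same pathway. Messenger RNA came from the corneas of dry eye mice, collected at day 14 of scopolamine injection. Scopolamine blocks muscarinic receptors and thereby lowers tear secretion. In the 4 ICI samples the mice were treated with ICI 118551 as well, which blocks β2-adrenergic receptors, and in the 4 Scop samples they had scopolamine alone. Each sample was a pool of 4 corneas. The sources used here give no strain, age, dose or route, nor which mice gave which pool, so the spread between samples may be partly technical. Every value sets ICI against Scop, since both groups carried scopolamine and no cornea without dry eye was among the samples.

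NF-kB is a family of dimeric transcription factors held in the cytoplasm by IkB proteins. Signals from receptors for tumour necrosis factor, interleukin 1 and microbial products activate the IKK kinase, which marks IkB proteins for destruction and lets the dimers enter the nucleus. Among the genes then transcribed are inhibitors of the pathway, such as Nfkbia, which encodes IkBα, and Tnfaip3, which encodes the ubiquitin-editing enzyme A20. In the cornea the pathway is known for the epithelial response to injury, infection and desiccation.

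RefSeq sequences before the transcription starts (build GRCm38.p6) were at hand for 7 of the 10 genes, with 10 starts in all, and are shown because several of these genes are known targets of the factor that they regulate. The 250 bases before each start were searched on both strands for GGG, any 3 bases and TTCC, a core form of the NF-kB binding motif. Matches were present before starts of 4 of the 7 genes, Nfkb2, Nfkbia, Tnfaip3 and Tnip1, against 5.31% of all 27025 genes. By stretch they were present in 7 of the 10, against 4.65% of the 32851 stretches of all genes. Starts of 1 gene can lie close together and share bases. The last 80 bases before the start are given for 4 genes, written 5′ to 3′ on the gene's strand, with matches in capitals; Nfkbib is shown as a gene without one.
Nfkbia, chr12:55492648-55492727, minus strand: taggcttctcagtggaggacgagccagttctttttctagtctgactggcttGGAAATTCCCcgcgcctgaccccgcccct
Tnfaip3, chr10:19015411-19015490, minus strand: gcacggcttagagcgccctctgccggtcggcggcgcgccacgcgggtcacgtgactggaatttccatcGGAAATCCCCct
Tnip1, chr11:54962941-54963020, minus strand: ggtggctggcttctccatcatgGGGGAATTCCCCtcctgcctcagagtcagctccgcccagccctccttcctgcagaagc
Nfkbib, chr7:28766645-28766724, minus strand: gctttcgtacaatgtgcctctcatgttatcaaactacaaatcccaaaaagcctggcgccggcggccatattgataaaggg

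The match of Nfkbia lay 29 to 20 bases before its start and that in the Tnfaip3 stretch shown 12 to 3 bases before, both on the opposite strand. Before the other Tnfaip3 start a match on the same strand, GGGTTATTCC (chr10:19012044-19012053), lay 90 to 81 bases upstream. In Tnip1 a match on each strand overlapped over 8 bases, so that the capitals span both. Before the most upstream of the 3 Nfkb2 starts, 2 matches were found, GGAATTCCCC (chr19:46304699-46304708) and GGGGCTTTCC (chr19:46304726-46304735). In the GENCODE annotation all 80 bases before that Nfkb2 start lie in exons of Nfkb2, as do those before the last of its 3 starts. The Tnfaip3 and Nfkbib stretches shown lie within the bounds of these genes there, though outside their exons. Such stretches are thus before a RefSeq start but not upstream of the whole gene. Rela, Nfkbib and Birc3 had no match in the stretch searched. A match is a run of letters and not a measured binding site.

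The values were FPKM (fragments scaled by the gene's length and the library's depth). Recovered whole fragments lay between 34354346 and 39885822 per library. Corneal epithelial transcripts dominated all libraries: summed over 6 markers (Krt12, Krt5, Krt14, Pax6, Aldh3a1 and Tkt) they stood at 34473 to 36670 FPKM in ICI and 34441 to 39265 in Scop. The 8 keratocyte markers summed to 1717 to 2299 FPKM in ICI and 669 to 2021 in Scop, with the 669 in Scop replicate 3, which stood apart from all other libraries in this respect. Of these 8 markers 0 had a negative log2 fold change, ICI minus Scop, and the median was 0.49. At limma's unadjusted p under 0.05, 1 of them was higher in ICI, and 0 passed after adjustment. Over all 12100 genes tested, 7.46% were lower and 4.56% higher at the unadjusted threshold, and nothing is read from the marker counts. The 10 macrophage and dendritic cell markers summed to 63.5 to 72.5 FPKM in ICI and 52.4 to 81.004 in Scop. Of the 6 that were tested 1 had a negative log2 fold change, the median was 0.079, and 0 were past the unadjusted threshold. Ptprc, the common leukocyte antigen, averaged 0.0817 in ICI and 0.124 in Scop and was too low to test. Of 7 neutrophil markers 6 were in the table. Ly6g was listed at 0 throughout, and the summed level of 7.88 to 16.0 in ICI and 15.9 to 24.7 in Scop was mostly S100a9, which stressed epithelium also expresses. S100a9 itself averaged 9.38 ± 2.35 in ICI and 20.3 ± 3.63 in Scop (SD, n = 4 each), and its groups did not overlap. All ICI values lay below all Scop values in 4.36% of all genes tested. Of 8 lymphocyte markers 5 were in the table, with sums of 0.0344 to 0.215 in ICI and 0.0275 to 0.235 in Scop, and Cd79a listed at 0. Of 5 conjunctival and goblet cell markers 4 were in the table, and they summed to 1191 to 1259 in ICI and 1114 to 1857 in Scop, highest in Scop replicate 3. Most of that sum was Krt13 (996 ± 21.1 in ICI and 1073 ± 269 in Scop, SD, n = 4 each). Krt4 (150.3 ± 13.4 in ICI and 194 ± 44.7 in Scop) and Krt19 (83.3 ± 8.15 in ICI and 104 ± 19.3 in Scop) overlapped between groups, and both were past the unadjusted threshold of 0.05 on the lower side but not the adjusted one. The 5 corneal endothelial markers summed to 259 to 573 in ICI and 216 to 383 in Scop. Their median log2 fold change was 0.38, with 1 of the 5 negative and 0 past the unadjusted threshold. Fewer cells of a type and less RNA per cell cannot be told apart in such bulk samples, and the part of cell composition in the values below was not tested.

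All 10 genes were transcribed in every library, and their messages spanned a wide range of levels. As mean FPKM in ICI the order was Nfkbiz (40.4), Nfkbia (28.5), Nfkb1 (19.0), Rela (16.3), Tnip1 (8.62), Nfkbib (7.21), Tnfaip3 (4.34), Birc3 (2.89), Nfkb2 (1.59) and Relb (1.002). The order was the same in Scop, where Tnip1 (8.75), Nfkbib (8.72) and Tnfaip3 (8.29) lay within their spread of each other. The lowest value, Relb in ICI replicate 1, rested on 290 fragments. The counting error of a single value averaged between 1.247% (Nfkbiz in Scop) and 5.45% (Relb in ICI). For Nfkbib in ICI it was 4.09%, above the coefficient of variation between samples of 2.34%, and for Tnip1 in Scop 3.08%, against 4.41% between samples.

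The place of Nfkb2 in this order depended on the gene length in the deposited values, while that of Relb did not. The length implied by FPKM and fragments was 11352 bases for Nfkb2 and 8746 for Relb, against 3846 and 3273 bases for the longest transcripts of these genes in GENCODE release M21. That of Nfkb2 is longer than the whole gene there, introns included (46304320 to 46312385 on chromosome 19). For the other 8 genes the implied length was 0.774 to 1.57 times that of the longest transcript. With the same scaling by the longest transcript, Nfkb2 averaged 4.69 in ICI and 6.44 in Scop, close to Birc3 (4.56 in ICI and 6.51 in Scop), while Relb stayed lowest (2.68 in ICI and 3.13 in Scop). Tnfaip3 then came next to Relb, at 3.36 in ICI and 6.42 in Scop. Rela then stood above Nfkb1 in both groups (20.3 and 19.6 in ICI, 21.7 and 21.5 in Scop). The ratio of 1 gene's FPKM between libraries is not touched by its length. The log2 fold changes below add 1 FPKM first, so a long implied length makes them smaller. That of Nfkb2, ICI minus Scop, was -0.29 with 1 FPKM added and -0.42 with 0.1 FPKM added. That of Relb was -0.12 and -0.21.

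**Figure D1:**
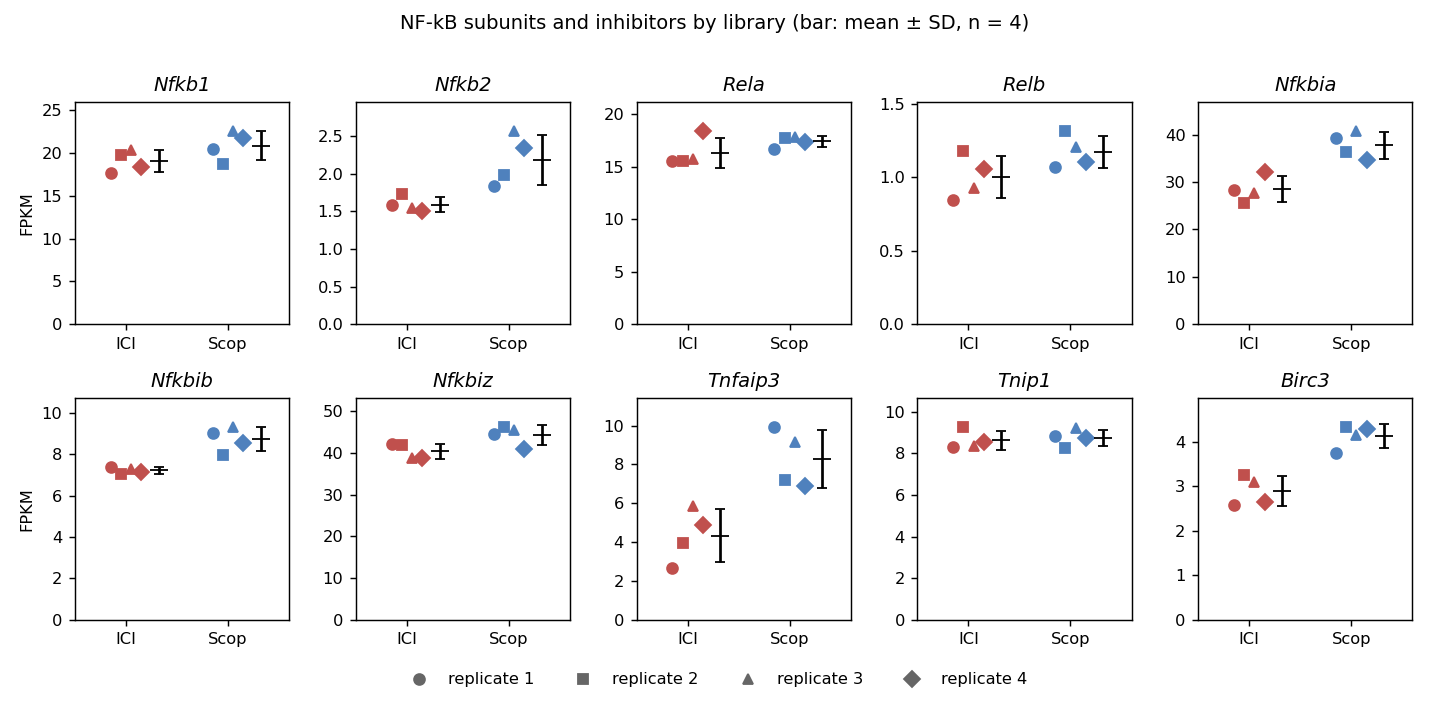
FPKM (vertical axes, each from 0) of the 10 genes in the 4 ICI libraries (red) and the 4 Scop libraries (blue), with marker shapes for replicate numbers and a bar for mean ± SD. All ICI points of Nfkbia, Nfkbib, Nfkb2, Tnfaip3 and Birc3 lie below all Scop points, while those of Rela, Nfkb1, Relb, Nfkbiz and Tnip1 overlap.

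The comparison of ICI with Scop asks how these transcripts stand in the scopolamine-treated cornea under blockade of β2-adrenergic receptors. The feedback inhibitors Tnfaip3 and Nfkbia and the inhibitor of apoptosis gene Birc3 were lower in every ICI sample than in any Scop sample, with ICI means at 0.523, 0.756 and 0.700 times the Scop means. The subunits Rela and Nfkb1 and the A20 partner Tnip1 had ICI means at 0.937, 0.913 and 0.985 times the Scop means and overlapped. The difference did not follow the role of the genes. The subunit gene Nfkb2 and the IkB gene Nfkbib, at 0.728 and 0.827 times the Scop means, did not overlap either. The subunit gene Relb (0.854) and the IkB gene Nfkbiz (0.912) overlapped. In 5 of the 10 genes all ICI values lay below all Scop values, and in 0 of 10 above. Over all 12100 genes tested the shares were 4.36% and 2.63%. All 10 had a negative log2 fold change, as had 55.4% of genes tested. A log2 fold change here is a difference of log2(FPKM + 1) values, so that of a low gene is understated. The median over the 10 genes was -0.19, beside -0.015 over all genes tested.

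None of the 10 genes passed limma's test after Benjamini-Hochberg adjustment over all genes (adjusted p 0.161 to 0.914), and 0% of all tested genes did. At an unadjusted p under 0.05, 6 of the 10 were lower and 0 higher, against 7.46% and 4.56% of all genes. Limma-voom on the recovered fragments likewise gave 0 of 10 after adjustment and 6 lower without it. Over all genes the unadjusted calls numbered 552 higher and 903 lower, and this split was 674 and 746 after median-ratio scaling and 728 and 717 after quantile normalisation. Because the genes were chosen with results of this contrast known, their values are a description, and nothing is read from the counts.

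**Figure D2:**
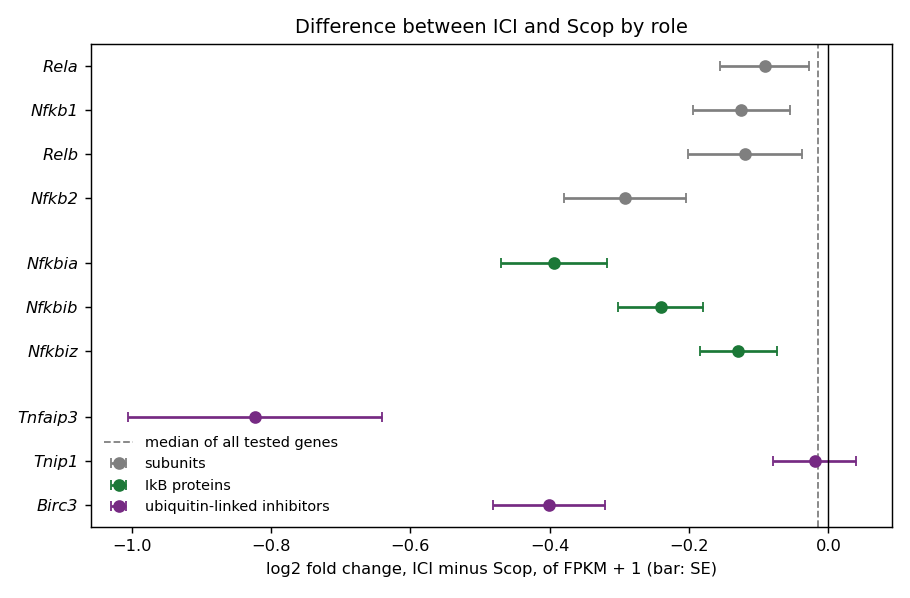
Log2 fold change of FPKM + 1, ICI minus Scop (horizontal axis, bars limma's standard errors), for the subunits, the IkB genes and the ubiquitin-linked genes. Tnfaip3 lies farthest from 0 at -0.82 and Tnip1 nearest at -0.02, and the dashed line marks the median of all tested genes.

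Among the subunits, Rela (chromosome 19, 5637483 to 5648130 of the mm10 build) encodes the main activating partner of the canonical dimer. It stood at 15.5, 15.5, 15.8 and 18.4 FPKM in ICI replicates 1 to 4, against 16.7, 17.7, 17.9 and 17.3 in Scop replicates 1 to 4. The groups overlapped because ICI replicate 4 was the highest of all 8 libraries, and the other ICI libraries lay below every Scop library. The log2 fold change was -0.09 (SE 0.06), and -0.15 without ICI replicate 4.

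Nfkb1 (chromosome 3, 135584655 to 135691547) encodes a precursor that is cut to the DNA-binding partner of Rela. It stood at 17.6, 19.8, 20.3 and 18.4 FPKM in ICI replicates 1 to 4, against 20.4, 18.8, 22.5 and 21.7 in the Scop replicates. Scop replicate 2 lay among the ICI values, and the log2 fold change was -0.12 (SE 0.07).

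Relb (chromosome 7, 19606217 to 19629438) encodes the activating subunit of the non-canonical branch. It stood at 0.846, 1.18, 0.927 and 1.06 FPKM in ICI, against 1.07, 1.32, 1.20 and 1.10 in Scop. Only ICI replicate 2 lay within the Scop range, and the log2 fold change was -0.12 (SE 0.08). Its partner Nfkb2 (chromosome 19, 46304320 to 46312385), a precursor that can itself hold dimers in the cytoplasm, was at 1.58, 1.73, 1.55 and 1.503 FPKM in ICI, against 1.84, 1.99, 2.57 and 2.34 in Scop. The groups did not overlap, and the Scop libraries spread more widely than the ICI libraries (coefficient of variation 6.16% in ICI and 15.2% in Scop). The log2 fold change was -0.29 (SE 0.09), and -0.44 by limma-voom on the fragments, where no pseudocount of 1 FPKM weighs on so low a value.

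Among the IkB genes, Nfkbia (chromosome 12, 55489410 to 55492647) encodes the inhibitor that is degraded first and made again within a round of signalling. Its level was 28.4, 25.7, 27.8 and 32.2 FPKM in ICI replicates 1 to 4, against 39.3, 36.3, 40.8 and 34.6 in Scop replicates 1 to 4. The groups did not overlap, with ICI replicate 4 and Scop replicate 4 the nearest pair. The mean was 28.5 ± 2.71 in ICI and 37.7 ± 2.80 in Scop (SD, n = 4 each), and the log2 fold change was -0.39 (SE 0.08).

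Nfkbib (chromosome 7, 28758251 to 28767512) encodes IkBβ, which is replaced more slowly. It was the most uniform of the 10 genes within ICI, at 7.40, 7.02, 7.30 and 7.13 FPKM, a coefficient of variation of 2.34%. The Scop values of 9.03, 7.98, 9.33 and 8.53 were all above these, and the log2 fold change was -0.24 (SE 0.06). Over 778 bases Nfkbib overlaps Sirt2, a deacetylase gene on the opposite strand at 22.2 ± 0.403 FPKM in ICI and 23.1 ± 1.19 in Scop (SD, n = 4 each). No source used here gives the strandedness, so reads of the shared stretch cannot be assigned.

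Nfkbiz (chromosome 16, 55811375 to 55838899) encodes IkBζ, an inducible nuclear protein that helps NF-kB activate a subset of its targets rather than holding it back. It had the highest FPKM of the 10 genes, at 42.1, 41.8, 38.7 and 38.9 in ICI, against 44.6, 46.3, 45.4 and 40.8 in Scop. Scop replicate 4 lay among the ICI values, and the other Scop libraries were above them. The log2 fold change was -0.13 (SE 0.05).

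Among the genes acting on ubiquitin chains, Tnfaip3 (chromosome 10, 19000910 to 19015657) had the largest difference of the 10 genes. It stood at 2.66, 3.95, 5.87 and 4.88 FPKM in ICI replicates 1 to 4, resting on 500, 747, 1105 and 879 fragments. The Scop replicates stood at 9.94, 7.19, 9.14 and 6.89 FPKM, resting on 1904, 1352, 1507 and 1188 fragments. The groups did not overlap, but the spread within ICI was the widest of any of the 10 genes (coefficient of variation 31.5% in ICI and 17.9% in Scop). The mean was 4.34 ± 1.37 in ICI and 8.29 ± 1.49 in Scop (SD, n = 4 each), and the log2 fold change was -0.82 (SE 0.18).

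Tnip1 (chromosome 11, 54910785 to 54962917) encodes a ubiquitin-binding adaptor that brings A20 to its substrates. Its values of 8.30, 9.28, 8.37 and 8.55 FPKM in ICI and 8.81, 8.27, 9.21 and 8.73 in Scop were interleaved, with both the highest in ICI replicate 2 and the lowest in Scop replicate 2. The log2 fold change was -0.02 (SE 0.06), and it turned positive after quantile normalisation (0.019) and without Scop replicate 3 (0.0026).

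Birc3 (chromosome 9, 7848699 to 7873186) encodes a ubiquitin ligase of the tumour necrosis factor receptor complex and is itself an NF-kB target. It stood at 2.57, 3.26, 3.10 and 2.65 FPKM in ICI, against 3.76, 4.34, 4.16 and 4.28 in Scop. The groups did not overlap, and the log2 fold change was -0.40 (SE 0.08), or -0.52 by limma-voom. Of the 7 genes with a RefSeq stretch, Nfkbia, Tnfaip3 and Nfkb2 held a motif match and had groups that did not overlap, and Rela had neither. Tnip1 held a match and its groups were interleaved, and Birc3 and Nfkbib held none and had groups that did not overlap. These genes were chosen with results of this contrast known, and a link between match and difference was not tested.

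**Figure D3:**
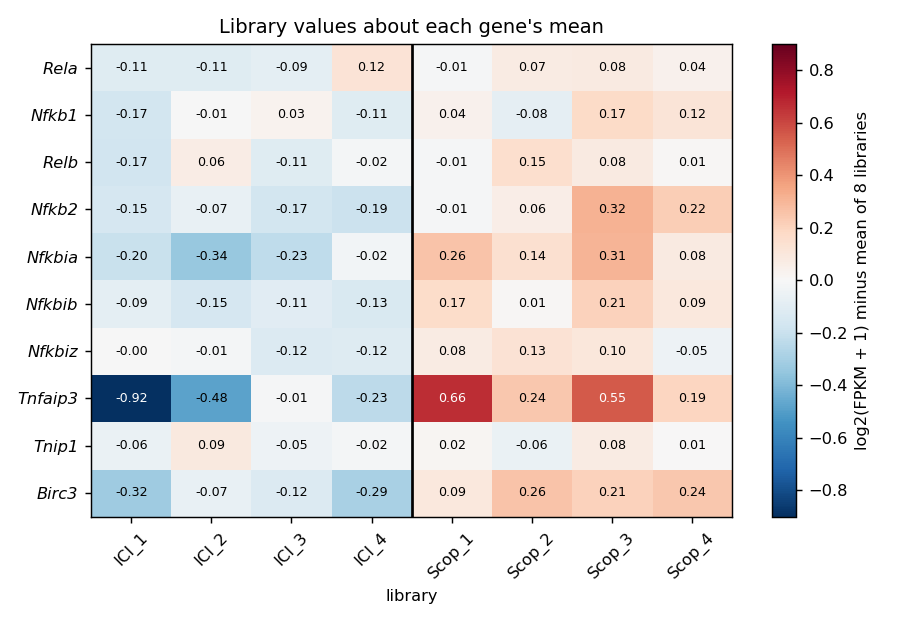
Log2(FPKM + 1) of each gene in each library minus its mean over the 8 libraries (colour and printed value), with ICI libraries left of the line and Scop libraries right of it. Tnfaip3 spans -0.92 in ICI replicate 1 to 0.66 in Scop replicate 1, and Scop replicate 3 is above the mean for every gene.

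Read by library, Scop replicate 3 held the highest value of 4 of the 10 genes (Nfkb1, Nfkb2, Nfkbia and Nfkbib), and ICI replicate 1 the lowest of 4 (Nfkb1, Relb, Tnfaip3 and Birc3). Averaged over the 10 genes, the centred log2 value was -0.22, -0.11, -0.097 and -0.10 in ICI replicates 1 to 4 and 0.13, 0.093, 0.21 and 0.096 in the Scop replicates. Scop replicate 3 is also the library with few keratocyte transcripts, and without it the median log2 fold change of the 10 genes was -0.16, with Tnfaip3 at -0.78, Nfkbia at -0.36 and Birc3 at -0.40.

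The ratio of 2 genes within a library does not change when each library is scaled by a single factor. Nfkbia stood at 1.83, 1.66, 1.76 and 1.75 times the FPKM of Rela in ICI replicates 1 to 4, against 2.36, 2.05, 2.28 and 2.002 in the Scop replicates. The groups did not overlap, although ICI replicate 4 had the highest Nfkbia value of its group, since its Rela value was high as well. The log2 ratio averaged 0.81 ± 0.058 in ICI and 1.12 ± 0.12 in Scop (SD, n = 4 each).

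Tnfaip3 stood at 0.171, 0.255, 0.373 and 0.266 times Rela in ICI, against 0.596, 0.405, 0.512 and 0.399 in Scop, and Birc3 at 0.165, 0.210, 0.197 and 0.144 in ICI, against 0.225, 0.245, 0.233 and 0.248 in Scop. For both genes the groups stayed apart. The ratios of Nfkb2 and Nfkbib to Rela overlapped between the groups, with differences in the mean log2 ratio, ICI minus Scop, of -0.35 and -0.17. Those of Relb, Nfkbiz and Tnip1 differed by -0.14, -0.035 and 0.075. Single libraries moved these smaller differences. Without ICI replicate 4, the library of high Rela, that of Nfkbib was -0.11, that of Nfkbiz 0.042 and that of Tnip1 0.14. That of Relb was -0.080 without ICI replicate 1, -0.24 without ICI replicate 2 and -0.089 without Scop replicate 2. For Tnip1, leaving out ICI replicate 2 gave 0.017 and leaving out Scop replicate 2 gave 0.039. That of Nfkbiz was -0.077 without ICI replicate 1, -0.075 without ICI replicate 2, -0.011 without Scop replicate 1, -0.023 without Scop replicate 2 and -0.071 without Scop replicate 4.

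**Figure D4:**
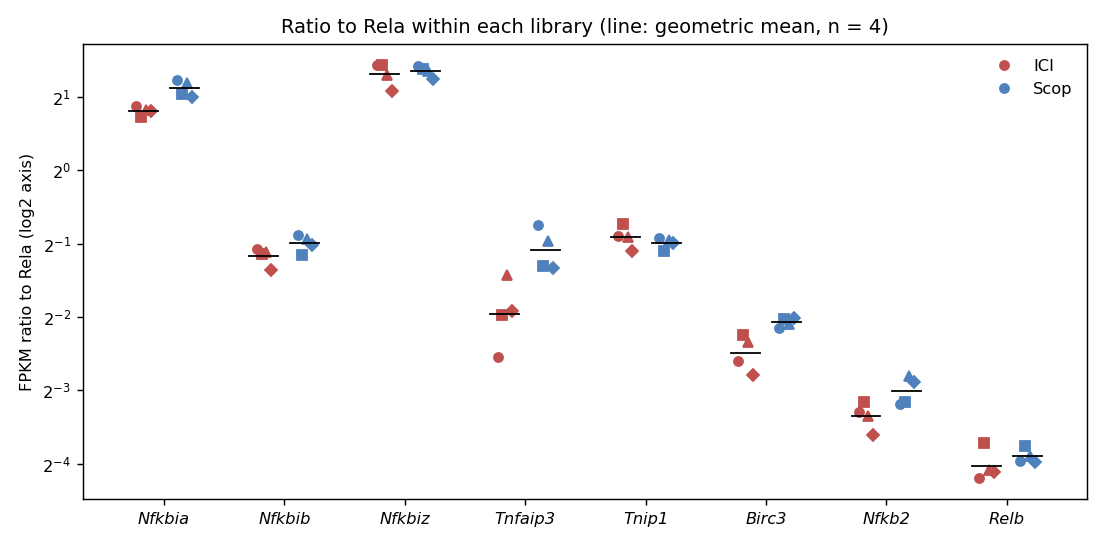
Ratio of FPKM to that of Rela in the same library (log2 axis) for 8 genes, ICI in red and Scop in blue, with marker shapes for the replicate number and lines at geometric means. The groups are apart for Nfkbia, Tnfaip3 and Birc3 and overlap for the other genes.

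Genes of like pattern were sought by the root mean square difference of centred log2(FPKM + 1) values over the 8 libraries, as a description. Nearest to Nfkbia were Ints10, a subunit of the Integrator complex (0.0845), Cdk2ap2 (0.0879), the cyclin gene Ccnd3 (0.0898), Arf2, a small GTPase gene (0.0902), and Ggnbp2os (0.0960), where Nfkbia itself varied by 0.222 about its mean. Ggnbp2os is named as an opposite-strand transcript, so its reads may not be told apart from those of its partner. Nearest to Tnfaip3 were Il17c, an epithelial cytokine gene (0.185), the lipoxygenase gene Alox12e (0.282), Tsc22d3 (0.284), Gadd45g (0.302) and Alox15 (0.306), where Tnfaip3 varied by 0.496. Il17c, closest to Tnfaip3, averaged 0.635 ± 0.378 FPKM in ICI and 1.78 ± 0.951 in Scop (SD, n = 4 each).

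The wider pathway was read from 7 lists with 117 genes, of which 115 were in the table and 92 had a mean of at least 0.5 FPKM and were tested. After adjustment 0 of the 92 passed in limma and 0 in limma-voom. At an unadjusted p under 0.05, 11 were lower and 3 higher in ICI, beside 7.46% lower and 4.56% higher of all genes tested, and the median log2 fold change was -0.037. Groups did not overlap for 9 genes with all ICI values lower and 0 with all ICI values higher, beside 4.36% and 2.63% of all genes. The counts by list below stand beside these same shares, and nothing is read from them.

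Among 6 tested ligand genes 1 was past the unadjusted threshold, Il1a, which encodes a cytokine stored in epithelial cells (14.7 ± 3.13 FPKM in ICI and 18.7 ± 2.30 in Scop, SD, n = 4 each). Tnf, the tumour necrosis factor gene, averaged 4.67 ± 1.32 in ICI and 6.39 ± 2.16 in Scop and overlapped, as did Il33, an epithelial alarmin (3.29 ± 0.252 in ICI and 4.33 ± 1.41 in Scop). Of 10 tested receptor genes only Ltbr, the lymphotoxin β receptor of the non-canonical branch, was past it (20.9 ± 1.21 in ICI and 23.8 ± 1.14 in Scop). The receptor gene Tnfrsf1a, through which tumour necrosis factor acts on epithelium, was at 57.7 ± 1.12 in ICI and 60.2 ± 4.17 in Scop, and Il1r1, the interleukin 1 receptor gene, at 3.57 ± 0.322 in ICI and 3.90 ± 0.512 in Scop.

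Of 20 tested adaptors and ubiquitin ligases 2 were lower at the unadjusted threshold, beside 7.46% of all genes tested. Ripk1, a kinase that scaffolds the receptor complex, stood at 2.79, 2.62, 2.69 and 2.89 FPKM in ICI, against 3.34, 3.29, 3.18 and 3.15 in Scop, with no overlap. Rnf31, the catalytic subunit of the linear ubiquitin ligase, averaged 5.68 ± 0.357 in ICI and 6.98 ± 0.877 in Scop (SD, n = 4 each) and overlapped. Bcl10, an adaptor, had the next smallest p (38.8 ± 1.10 in ICI and 42.7 ± 3.60 in Scop).

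None of the 12 tested kinase genes was lower at that threshold and 1 was higher. This was Map3k14, the kinase that starts the non-canonical branch (2.41 ± 0.200 FPKM in ICI and 1.85 ± 0.429 in Scop, SD, n = 4 each), whose groups overlapped. Chuk and Ikbkb, the catalytic subunits of IKK, averaged 12.4 ± 0.523 and 12.1 ± 0.596 in ICI, and 13.7 ± 1.11 and 13.0 ± 0.652 in Scop.

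Among 4 tested subunits and IkB genes beyond the 10, Bcl3 had the largest difference. It encodes an atypical nuclear IkB that binds homodimers of the Nfkb1 and Nfkb2 products. Its values were 8.59, 6.66, 8.004 and 8.88 FPKM in ICI, against 9.81, 13.99, 18.1 and 15.7 in Scop. The groups did not overlap, Scop replicate 1 lay close to ICI, and the log2 fold change was -0.75 (SE 0.16) with limma's adjusted p = 0.166. Nfkbie, which encodes IkBε, and Nfkbil1 had positive values of 0.14 (SE 0.10) and 0.065 (SE 0.10), and both overlapped. Nfkbie averaged 0.619 ± 0.198 FPKM in ICI and 0.461 ± 0.0872 in Scop (SD, n = 4 each). It met the filter of 0.5 FPKM on the mean over all libraries only through its ICI values. Its test is therefore no independent support for a difference.

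Of 17 other negative regulators tested, 3 were lower at the unadjusted threshold and 0 higher, beside 7.46% and 4.56% of all genes tested. Groups did not overlap for 2 of these, Zc3h12a and Tnip2, nor for Pdlim2, which missed the threshold (28.5 ± 0.399 FPKM in ICI and 32.1 ± 3.91 in Scop, SD, n = 4 each) and is named after its values were seen. Zc3h12a, which encodes a ribonuclease that degrades inflammatory messages, averaged 9.57 ± 0.789 FPKM in ICI and 13.1 ± 1.82 in Scop (SD, n = 4 each). Tnip2, a relative of Tnip1, was at 10.9, 11.5, 11.4 and 11.001 in ICI, against 12.6, 12.5, 12.2 and 11.9 in Scop, with no overlap. Il1rn, the interleukin 1 receptor antagonist gene, averaged 8.10 ± 1.27 in ICI and 11.4 ± 2.19 in Scop and overlapped. Tnip3, another relative of Tnip1, was too low to test, at 0.0741, 0.154, 0.182 and 0.0352 in ICI, against 0.252, 0.559, 0.661 and 0.603 in Scop. It falls outside the rule for named genes and was chosen after its values were seen.

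Of 34 textbook targets 23 were tested, and the list's median was -0.025. At the unadjusted threshold 3 were lower and 2 higher, beside 7.46% and 4.56% of all genes tested. The 3 were the chemokine genes Cxcl2 (0.371 ± 0.266 FPKM in ICI and 2.89 ± 1.01 in Scop, SD, n = 4 each) and Cxcl1 (2.11 ± 0.475 in ICI and 5.05 ± 0.897 in Scop) and the transcription factor gene Cebpd (3.64 ± 0.468 in ICI and 7.41 ± 1.30 in Scop). Each had limma's adjusted p = 0.0788, and each passed once with a single Scop library left out, Cxcl2 without replicate 3, Cxcl1 without replicate 4 and Cebpd without replicate 1. Cxcl2 averaged below 0.5 FPKM in ICI and met the filter on the mean over all libraries only through its Scop values. Its test is therefore no independent support for a difference. The 2 higher ones, Junb and Ier3, are immediate early genes, and they were chosen after their values were seen. Junb averaged 125 ± 36.2 in ICI and 86.7 ± 5.80 in Scop, and ICI replicate 4 (81.04) lay within the Scop range. Il6, Ccl20, Mmp9 and Nos2, targets of acute inflammation, were below 0.5 FPKM on average and not tested, and Saa3 was listed at 0 in all ICI libraries and in Scop replicates 1 and 2, at 2.29 in Scop replicate 3 and at 0.522 in Scop replicate 4.

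**Figure D5:**
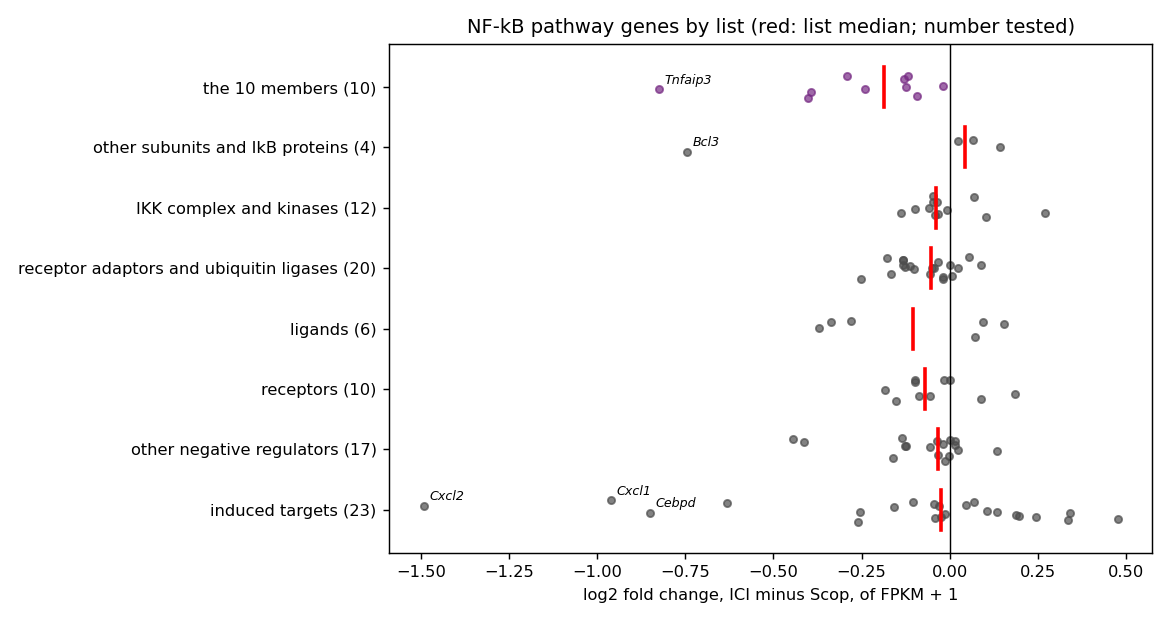
Log2 fold change of FPKM + 1, ICI minus Scop (horizontal axis), of the 10 genes and of the tested genes of the 7 pathway lists, with red bars at list medians and names for genes beyond 0.7 in size. The named genes are Tnfaip3, Bcl3, Cxcl2, Cxcl1 and Cebpd, and the list medians run from -0.10 (ligands) to 0.044 (other subunits and IkB proteins).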

How the data were processed

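RNA-seq was made from 8 pools of mouse corneas, 4 ICI and 4 Scop, grouped and numbered by their titles. A Qiagen kit for RNA and a Vazyme kit for libraries were used, per the labels' protocols. The submitters' processing notes name the tools HTSeq, HISAT2 and fastp and the build mm10. Versions, annotation and strandedness were not given in the sources used here. The file the authors deposited holds FPKM, with column sums between 434149 and 448239 and no stated scaling between samples.

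The 10 genes, the gene lists, the tests and the first alternatives were chosen with earlier results of these data known. Genes averaging 0.5 FPKM or more, 12100 in all, were fitted as log2(FPKM + 1) in R 4.3.3 with lmFit and trended eBayes of limma 3.58.1 (two-sided, Benjamini-Hochberg adjustment over all tested genes, threshold 0.05). The fit was tried on simulated data with the same assumed spread between samples for every gene, not estimated from these libraries. That trial does not show how the fit behaves for genes as variable as Tnfaip3. FPKM are not counts, so a count model was not the main result. Whole fragments were recovered from the steps that FPKM values of a gene form between libraries (relative tolerance of a ratio 1e-14, whole within 0.01) for 99.7% of the genes above 0, and limma-voom was run on them as an alternative. Where all fragments of a gene have a common factor, this gives too low a number. Other alternatives were pseudocounts of 0.1 and 5, other filters, scalings and variance models, the replicate number as a block, and each library left out. Named pathway genes were the up to 3 of each list with the smallest p, and Tnip3, Junb, Ier3, Il6, Ccl20, Mmp9, Nos2, Saa3 and Pdlim2 were added after their values were seen. Gene coordinates and transcript lengths are those of GENCODE release M21 (GRCm38, the assembly of mm10), 1-based, and sequences before starts are from RefSeq.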

Additional observations from a re-analysis of the deposited data

Results flagged for a closer look

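In groups of 4 libraries, the gap between the highest or lowest library and its nearest neighbour was set against the whole range (Dixon's criterion), over 78 groups of gene values and ratios, of which chance flags about 1 in 20. It marked 3. Rela in ICI replicate 4 stood at 18.4 FPKM, with the other ICI libraries between 15.5 and 15.8, and in ICI replicate 1 Rnf31 stood at 6.21 FPKM, with the others between 5.45 and 5.56. Cxcl2 in Scop replicate 3 stood at 4.39 FPKM, with the other Scop libraries between 2.18 and 2.51.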

How the results depend on the processing

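Of 408 values recomputed under alternatives, 391 kept their direction and side of the threshold, or stayed within 1.5 times a count or the spread of a value. None of the 10 genes passed the adjusted test under any of the 17 alternatives, with adjusted p from 0.139 (Nfkbia) upward, and 9 of the 10 kept a negative sign in each. Tnip1 was at 0.019 after quantile normalisation and between -0.052 and 0.0026 with 1 library left out. The median over the 10 genes ran from -0.25 (limma-voom) to -0.12 (pseudocount 5). With only genes of at least 5 FPKM, 7 of the 10 remained in the test. The mean log2 ratio of Nfkbiz to Rela, ICI minus Scop, was between -0.077 and 0.042 with 1 library left out. Genes higher at an unadjusted p under 0.05 numbered 862 without a filter and 318 with a mean of at least 5 FPKM. With 1 library left out, between 0 and 4 genes were higher and between 0 and 2 lower after adjustment, both most without Scop replicate 4. Of the pathway lists, between 0 and 1 gene was then lower after adjustment, and between 0 and 5 were higher without it. That last count was 5 after quantile normalisation and 5 with the replicate block. The replicate block gave 643 genes higher and 869 lower without adjustment and 0 after it. Deviations from the group means of libraries with the same number correlated across genes by 0.287, -0.0093, 0.138 and 0.0769, and 3 of 8 libraries correlated best with their own number, so the numbers were not taken to pair the samples. The cause of these shifts was not tested, and 4 samples per group limit the precision.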
